A study of Mus musculus with 2 samples.

Results

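The genes described here are 35 cell cycle and DNA replication genes, taken by symbol from the 27998 genes that the deposited count tables list. All 35 symbols were found. They were chosen for their function, to see which immune lineages of the diseased liver carry the transcripts of a dividing cell, and in how many cells.

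The liver non-parenchymal cells (the cells other than hepatocytes) came from mice of 2 genotypes, PKM2FL/FL and PKM2ΔMAC, and were profiled by droplet single-cell RNA sequencing. In the usual notation PKM2FL/FL carries floxed alleles of Pkm, whose M2 isoform is the pyruvate kinase of glycolysis in most dividing and immune cells, and PKM2ΔMAC is the deletion, named by the submitters for macrophages. Both genotypes had been fed an MCD diet for 8 weeks, a methionine- and choline-deficient diet that brings on steatohepatitis in mice. There was 1 library per genotype, and no untreated liver. Neither the Cre driver nor the number of mice behind each library is stated in the labels.

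A cell that is going to divide loads the Mcm helicase onto replication origins and copies its DNA with the sliding clamp Pcna, newly made nucleotides and new histones. It then enters mitosis under the kinase Cdk1 and the B-type cyclins. Spindle, kinetochore and chromosome genes are transcribed late in the cycle, and the anaphase-promoting complex with Cdc20 and Ube2c ends mitosis by marking cyclins for destruction. Mature neutrophils do not divide, whereas T and NK cells can re-enter the cycle after activation.

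Many late genes are known to be regulated through the cell cycle genes homology region (CHR) and many early ones through E2F sites, with CCAAT boxes common in both. Promoter sequences of 29 of the 35 members were found in RefSeq, and Ccna2, Tpx2, Aurkb, Hist1h2ap, Mcm4 and Stmn1 had no entry. To show the letters behind this division, the 150 bases before the transcription start are printed for 4 late members with a CHR match and for 2 Mcm genes with E2F matches, 5′ to 3′ on the gene's own strand, from RefSeq on GRCm38.p6. Capitals mark matches on either strand to these motifs. CHR was searched as TTTGAA and in its second form as TTCGAA. The box was searched by the 5 letters of its name. E2F was searched as TTTGGCGC, TTTCCCGC, TTTCGCGC, TTTGGCGG, TTTGCCGC or TTTCCCGG. No match shown overlaps a match to another of these motifs, while 2 E2F matches in Mcm6 overlap each other.
Cdc20 (chr4:118437344-118437493, minus strand): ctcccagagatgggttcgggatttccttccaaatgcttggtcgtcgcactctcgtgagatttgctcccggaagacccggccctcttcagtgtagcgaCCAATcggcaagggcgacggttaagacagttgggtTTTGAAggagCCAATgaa
Ube2c (chr2:164769779-164769928, plus strand): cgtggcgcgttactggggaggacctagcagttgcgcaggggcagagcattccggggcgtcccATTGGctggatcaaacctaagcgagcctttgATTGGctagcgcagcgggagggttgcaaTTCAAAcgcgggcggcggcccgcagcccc
Top2a (chr11:99024190-99024339, minus strand): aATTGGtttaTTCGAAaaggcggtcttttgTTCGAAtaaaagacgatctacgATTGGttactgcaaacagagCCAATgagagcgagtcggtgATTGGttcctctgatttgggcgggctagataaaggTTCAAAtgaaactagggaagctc
Cdk1 (chr10:69352913-69353062, minus strand): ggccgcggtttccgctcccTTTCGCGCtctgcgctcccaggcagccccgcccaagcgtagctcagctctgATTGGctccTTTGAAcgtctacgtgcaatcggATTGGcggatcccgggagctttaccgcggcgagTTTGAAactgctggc
Mcm5 (chr8:75109359-75109508, plus strand): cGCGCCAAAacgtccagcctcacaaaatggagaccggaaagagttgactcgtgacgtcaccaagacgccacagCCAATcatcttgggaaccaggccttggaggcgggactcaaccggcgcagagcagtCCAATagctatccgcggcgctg
Mcm6 (chr1:128359706-128359855, minus strand): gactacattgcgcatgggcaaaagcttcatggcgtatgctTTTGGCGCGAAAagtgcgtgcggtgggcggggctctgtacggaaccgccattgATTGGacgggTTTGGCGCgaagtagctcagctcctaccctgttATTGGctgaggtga

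In the window from 250 bases before to 50 after the start, 12 of the 17 matched division members held a CHR match, namely Mki67, Top2a, Cenpf, Cenpa, Ube2c, Ccnb2, Cdk1, Cdc20, Aurka, Kif11, Plk1 and Cks1b. Among the 10 matched members for replication and nucleotide supply, 2 did (Mcm2 and Mcm7). Of all 32851 promoters of this length in the table, 19.2% held one. An E2F match was found in 5 of those 10 (2810417H13Rik, Mcm3, Mcm5, Mcm6 and Mcm7) and in 2 of the 17 (Birc5 and Cdk1), against 3.98% of all promoters. CCAAT was found in 26 of the 29, against 37.4% of all promoters. Each of the 16 members with a CHR match also held CCAAT, a combination present in 7.52% of all promoters. In Cdk1 all 3 motifs were found. A match describes letters in this window only, and binding was not measured.

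The libraries held 10054 barcodes and 54519921 unique molecular identifiers (UMIs, each counting 1 captured transcript) for PKM2FL/FL and 8949 barcodes and 43134027 UMIs for PKM2ΔMAC. After filtering and removal of called doublets (4.80% and 3.69%), 9510 and 8549 cells remained, with medians of 4384 and 3716 UMIs. The 2 libraries shared 17 barcodes. Pkm was measured at 311 CPM (UMIs per 1000000 UMIs) in Kupffer-like cells of PKM2FL/FL and at 153 in PKM2ΔMAC (42 and 28 UMIs, ratio 0.492, 0.293 to 0.812), and at 230 and 167 CPM in T cells. These 3′ tags count all isoforms and need not lie in the deleted part, so they check nothing about the labels. Cells were assigned to lineages by marker genes, and lineage names below mean marker-gated cells. Every interval is an exact 95% interval for counting error alone (Clopper-Pearson for shares, Poisson for levels, conditional binomial for ratios). With 1 library per genotype there is no test between genotypes, and a ratio compares these libraries and not the genotypes.

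Most cells carried next to none of these transcripts, and a small set carried most of them at once. For counting per cell 30 of the 35 members were used, without Stmn1, Hmgb2, Pcna and the 2 histone genes, which were left out by a choice made on their known function. Cks2, Mcm4 and Cenpa, which were kept, proved broader than Stmn1 (66.9% of UMIs in cells with at least 10 members). Among 18059 cells, 15234 had a UMI for 0 to 2 of these 30 members, 2488 for 3 to 9 and 337 for at least 10. The count of cells reached a low point of 8 at 17 members and was 29 at 26 members. The cells with at least 10 members held more RNA, with a median of 15200 UMIs against 6932 at 3 to 9 members and 3652 at 0 to 2. Near the limit, 76 cells had 8 or 9 members and 45 had 10 or 11, so the cells above it are a range of a score and not a type. The limit of 10 was chosen after this distribution had been seen.

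**Figure D1:**
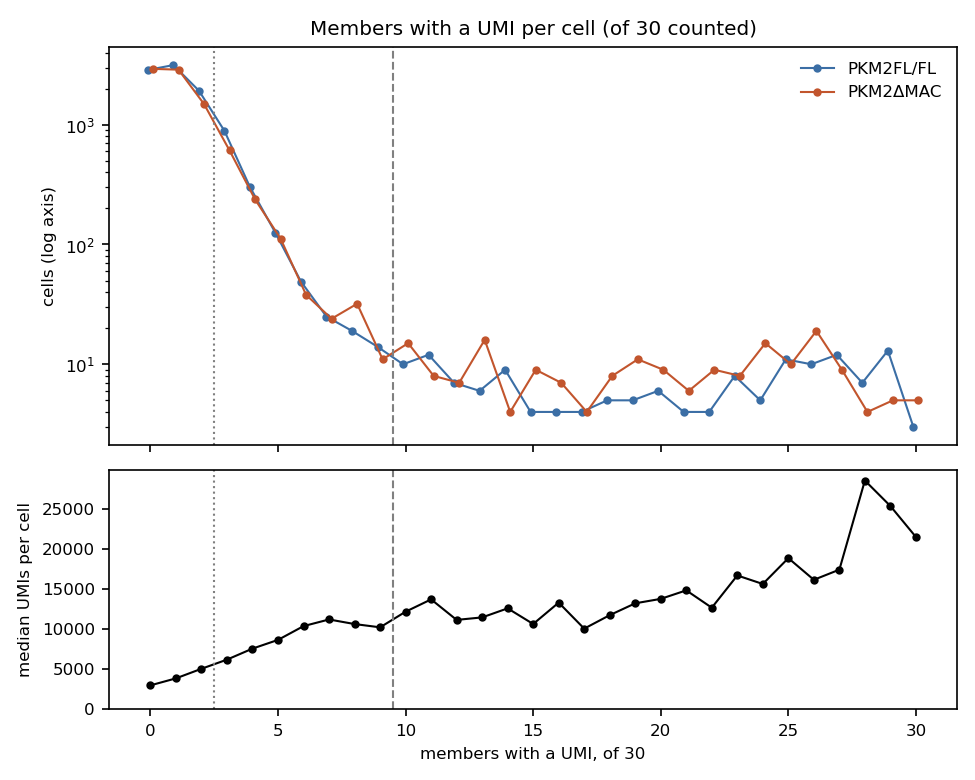
Number of cells (upper panel, log axis) and median UMIs per cell (lower panel) by the number of the 30 counted members with at least 1 UMI, for PKM2FL/FL and PKM2ΔMAC. Grey lines mark the limits of 3 and 10 members: 337 of 18059 cells lie at 10 or more, with a low point of 8 cells at 17 members and 29 cells at 26.

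At the looser limit of 3 members the shares of T cells and of NK cells were close between the libraries. In T cells 22.8% of 2486 cells in PKM2FL/FL and 24.1% of 1995 in PKM2ΔMAC had at least 3 members, a ratio of 1.06 (0.933 to 1.19). NK or ILC1 stood at 21.3% of 2706 cells and 22.1% of 2067, a ratio of 1.04 (0.917 to 1.18). B cells reached 6.65% of 2149 and 3.58% of 2376, a ratio of 0.538 (0.406 to 0.708). Neutrophils, the lineage that should hold no dividing cell, had 24 of 1454 cells or 1.65%, at a median of 2256 UMIs against 5699 in T cells and 4899 in NK or ILC1. The highest shares stood in deeply sequenced lineages, with 39.0% of 77 plasma cells and 38.6% of 88 cDC1 (type 1 conventional dendritic cells, median 12443 UMIs). Depth thus differed between lineages along with the share at 3 members, and thinned values are given below.

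At 10 members the lineages stood far apart. NK or ILC1 held 161 of the 337 such cells and T cells 121, whereas 4525 B cells held 4 and 1454 neutrophils none. In PKM2FL/FL the NK or ILC1 share was 47.0% of the cells with at least 10 members against 28.5% of all cells, and the T share was 38.3% against 26.1%. In PKM2ΔMAC the NK or ILC1 share was 48.4% against 24.2%, and the T share 34.0% against 23.3%. As a share of the lineage, plasma cells and cDC1 were each at 9.09% (7 of 77, 3.73 to 17.8%; 8 of 88, 4.01 to 17.1%), cDC2 at 5.37% (11 of 205, 2.71 to 9.40%), NK or ILC1 at 3.37% (2.88 to 3.93%) and T cells at 2.70% (2.25 to 3.22%). Neighbours in this order overlapped in their intervals. B cells stood at 0.0884% (0.0241 to 0.226%), below the intervals of all of these, and the neutrophil count of 0 allows a share of up to 0.206%.

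The remaining myeloid and tissue lineages held few such cells. They numbered 3 of 221 Kupffer-like cells (1.36%, 0.281 to 3.92%), 2 of 373 plasmacytoid dendritic cells (0.536%) and 1 of 482 classical monocytes (0.207%). None was found among 181 endothelial and 105 stromal cells, which allows shares of up to 1.66% and 2.86%. Only 5 neutrophil precursors were gated, and 4 of them had at least 10 members. Endothelial cells were shallow (median 966 UMIs) and so were Kupffer-like cells (median 1049), so that at this depth a cell in the cycle can fall short of 10 members. With each cell thinned to 1000 UMIs, 8 of 115 Kupffer-like cells had at least 3 members (6 of 54 in PKM2FL/FL and 2 of 61 in PKM2ΔMAC), against 1 of 1397 neutrophils.

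**Figure D2:**
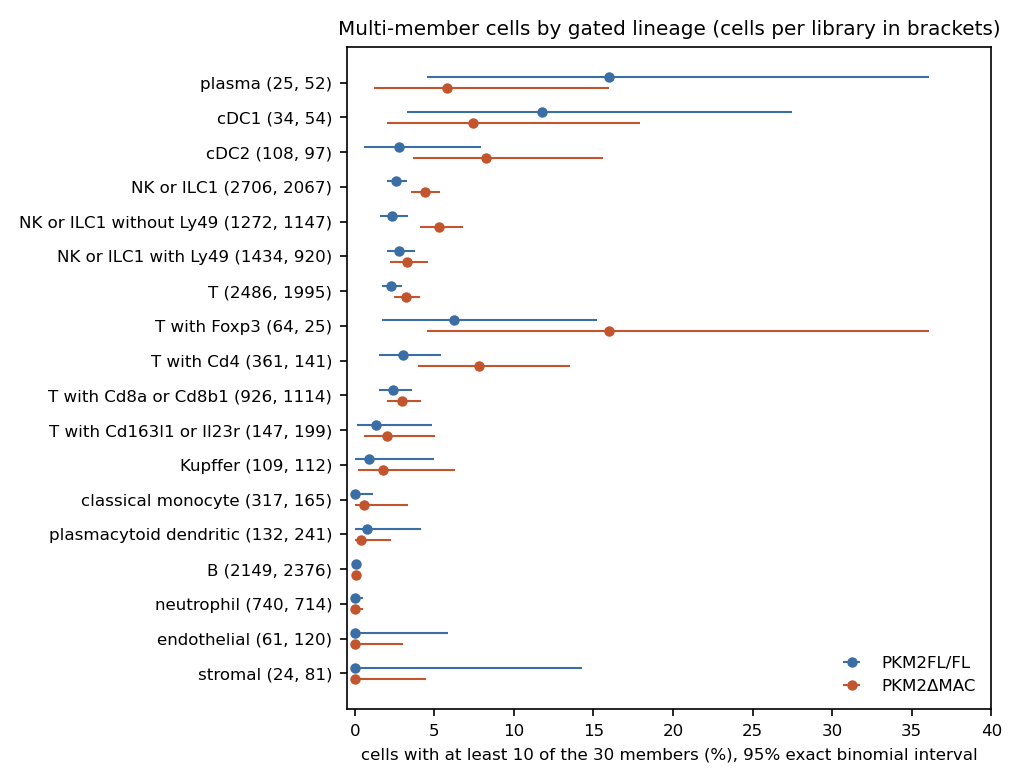
Share of cells with at least 10 of the 30 members in each gated lineage (points, with exact 95% binomial intervals as bars), for PKM2FL/FL and PKM2ΔMAC, with cells per library in brackets. NK or ILC1 stand at 2.59% and 4.40% and T cells at 2.29% and 3.21%, while B cells stay under 0.1% and no neutrophil is found.

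The share of NK or ILC1 with at least 10 members was higher in PKM2ΔMAC. It was 70 of 2706 cells (2.59%, 2.02 to 3.26%) in PKM2FL/FL and 91 of 2067 (4.40%, 3.56 to 5.38%) in PKM2ΔMAC, a ratio of 1.70 (1.23 to 2.36). T cells had 57 of 2486 (2.29%, 1.74 to 2.96%) and 64 of 1995 (3.21%, 2.48 to 4.08%), a ratio of 1.40 whose interval included 1 (0.964 to 2.04). Over all cells the shares were 1.57% and 2.20%, a ratio of 1.40 (1.13 to 1.75), although the ratio at 3 members was below 1 (0.887, 0.823 to 0.956). The direction over all cells therefore turned with the limit. Thinned to 1000 UMIs and at 3 members, NK or ILC1 stood at 2.17% and 4.21% (1.94, 1.37 to 2.76), T cells at 2.14% and 3.21% (1.5, 1.02 to 2.20) and all cells at 1.59% and 2.30% (1.45, 1.16 to 1.81). In neutrophils thinning left 1 of 1397 cells, or 0.0716%.

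Within NK or ILC1 the larger ratio stood in cells with no UMI of Klra4, Klra8 or Klra9. These genes belong to the Ly49 receptors, a family carried by many mature NK cells, and its other genes were not used. Cells without the named genes were 30 of 1272 (2.36%) in PKM2FL/FL and 61 of 1147 (5.32%) in PKM2ΔMAC, a ratio of 2.25 (1.43 to 3.62). Cells with a UMI of any of the named genes stood at 2.79% and 3.26%, a ratio of 1.17 (0.703 to 1.92). The intervals of these ratios overlap, and the difference between them was not tested. T cells were split into groups that shared no cell. Those with a Cd4 UMI and none of Cd8a, Cd8b1 or Foxp3 were at 11 of 361 (3.05%) and 11 of 141 (7.80%). Their ratio was 2.56 (1.01 to 6.51). Thinned to 1000 UMIs, and at a limit of fewer members, they were at 15 of 359 and 9 of 141. Those with Cd8a or Cd8b1 and neither Cd4 nor Foxp3 were at 22 of 926 (2.38%) and 33 of 1114 (2.96%), a ratio of 1.25 (0.705 to 2.24). Cells with Foxp3, the factor of regulatory T cells, with or without the other markers, held 4 of 64 and 4 of 25. Cells with Cd163l1 or Il23r and none of Cd4, Cd8a, Cd8b1 or Foxp3 held 2 of 147 and 4 of 199. Cd163l1 and Il23r are markers of γδ T cells that make interleukin 17. These subsets rest on finding a marker UMI and so depend on a cell's depth.

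The members themselves split by how tightly they kept to the cells with many members. For each member the cells were chosen with that member left out. In 24 of the 35, at least 50% of all UMIs lay in cells with 10 or more other members, and in 11 less. Ccna2, the cyclin of replication and early mitosis, had 95.6% of its UMIs there. Cenpf, a kinetochore protein, had 94.5%, the survivin gene Birc5 of the chromosomal passenger complex 93.7%, the Pcna-binding factor 2810417H13Rik (now named Pclaf) 93.7% and the spindle protein Nusap1 92.0%. Mki67, the Ki-67 antigen, had 85.7% and the DNA topoisomerase Top2a 76.5%. The lowest of the 24 were Tyms (thymidylate synthase, 55.9%) and Aurka (Aurora kinase A, 56.5%). Of 630 cells with a Mki67 UMI, 252 also had one of Birc5 and 302 one of Top2a, whereas of 356 cells with Birc5, 70.8% had Mki67.

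The 11 members under 50% ran from Pcna (16.7%) to Rrm1 (the large subunit of ribonucleotide reductase, 38.8%). They included all 6 Mcm helicase genes, from Mcm4 at 22.5% to Mcm5 at 36.8%, the chromatin protein Hmgb2 (35.7%), the centromere histone Cenpa (25.0%) and Cks2, a small binding partner of Cdk1 (22.0%). Among neutrophils 83.4% had a Hmgb2 UMI and 35.3% a Cks2 UMI, against 0.825% for Mki67 and 0.275% for Birc5. Hmgb2 and Cks2 were thus found broadly in cells that held almost none of the late members. Cenpa was found in 8.94% and Pcna in 7.57% of neutrophils. Of 4411 cells with Cenpa only 7.66% had Mki67, although both encode chromosome proteins of dividing cells. In B cells, with 4 cells at 10 members, it stood at 137 and 111 CPM, and in T cells, with 121, at 100 and 97.7. Cenpa and Cks2 were 5.0-fold (4.75 to 5.26) and 4.37-fold (4.14 to 4.61) higher in cells with at least 10 other members than in cells with 0 to 2, against 417-fold (285 to 636) for Ccna2.

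The total number of UMIs differed widely among members. Hmgb2 had 45999 and Stmn1, which encodes the microtubule-destabilising protein stathmin, 10866. Pcna had 8453, Cenpa 8435 and Cks2 8129. The rarest were the Polo-like kinase Plk1 (352), Aurka (483) and Ccnb1 (547), so their ratios carry the widest intervals. The strand setting of the authors' counting is not given in the sources used here, and Ube2c, 2810417H13Rik, Nusap1, Ccna2, Cdc20 and Mcm7 overlap another named gene on the opposite strand (Tnnc2, Trip4, Oip5, Exosc9, Elovl1, and Ap4m1 with Cops6), whose reads could not be told apart without it. Hist1h2ap and Hist1h2ae belong to a family of near-identical histone genes, so their counts are uncertain.

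Summed over the 30 counted members, T cells held 704 CPM in PKM2FL/FL (691 to 718) and 936 in PKM2ΔMAC (920 to 953). NK or ILC1 held 849 (835 to 864) and 1026 (1007 to 1045). B cells were lower and close to each other at 360 (347 to 374) and 351 (337 to 366). Neutrophil precursors were not among the lineages summed. Of those summed, plasma cells were highest in PKM2FL/FL, at 3162 (2961 to 3373). They were followed by cDC1 at 1916 (1790 to 2048), with an interval that overlapped that of basophil or mast cells. In PKM2ΔMAC the order differed, with plasma cells at 1337 (1231 to 1450), below basophil or mast cells, and cDC1 at 896 (825 to 973), below NK or ILC1. In both of these rarer lineages the PKM2FL/FL library was the higher one, from 25 and 34 cells against 52 and 54. Neutrophils reached 384 (355 to 414) and 542 (509 to 577), and Cks2 alone gave 271 and 453 CPM of that. Basophil or mast cells, 26 and 18 in number with none at 10 members, likewise stood at 1773 and 1644 CPM, of which Cks2 gave 1616 and 1371. In such sums more cells in the cycle and more RNA per cell in the cycle cannot be told apart.

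**Figure D3:**
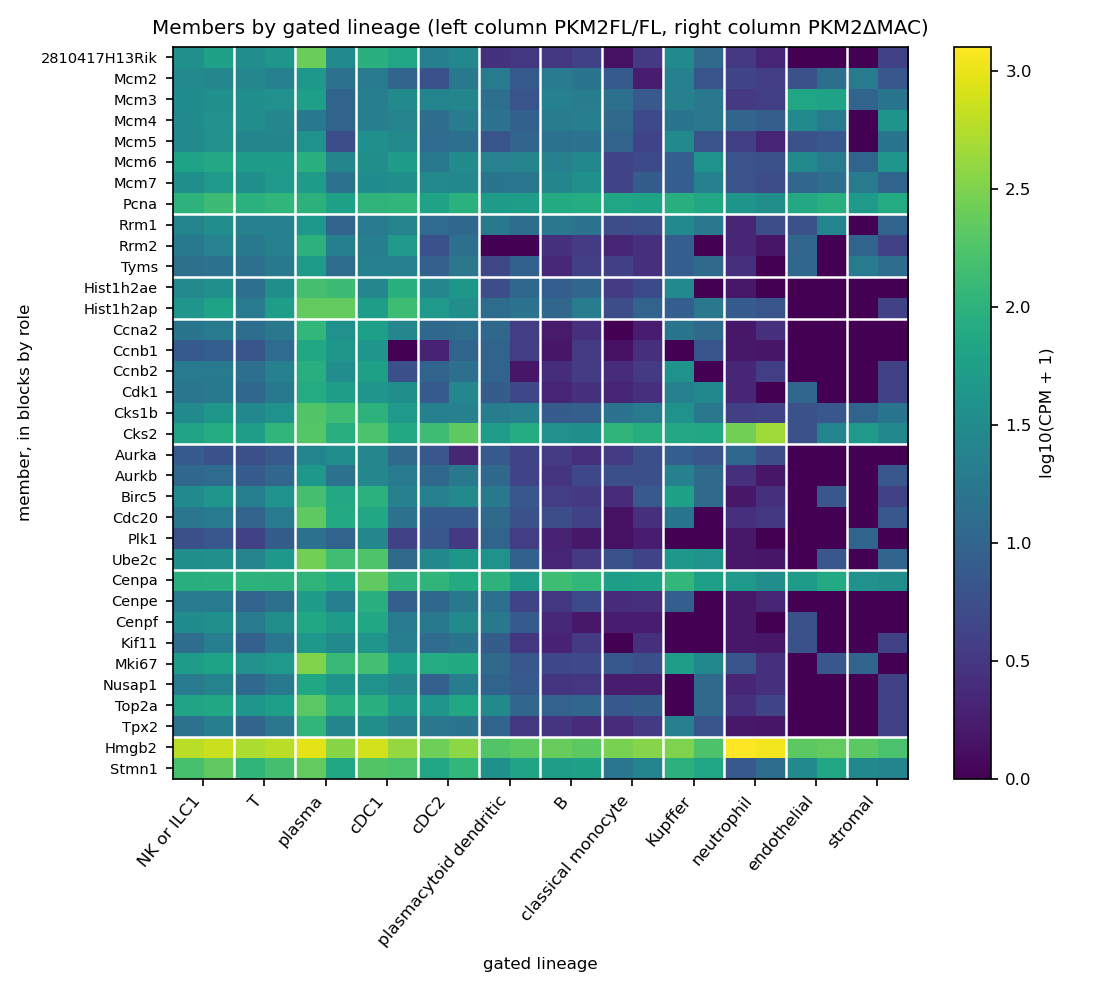
Level of each of the 35 members, as log10 of CPM plus 1, in each gated lineage (left column PKM2FL/FL, right column PKM2ΔMAC), with members in blocks by role. Hmgb2 and Cks2 are high in neutrophils, at 1261 and 271 CPM in PKM2FL/FL, where Mki67 is at 5.74 and Birc5 at 0.574.

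Among the genes of origin licensing and the replication fork, T cells of the 2 libraries were close. Mcm6 stood at 49.3 and 51.3 CPM in PKM2FL/FL and PKM2ΔMAC (775 and 652 UMIs, ratio 1.04, 0.936 to 1.16). Mcm2 (0.834, 0.713 to 0.973) and Mcm4 (0.820, 0.711 to 0.944) were the lowest of the 35 ratios, Mcm5 stood at 1.01, Mcm3 at 1.07 and Pcna at 1.15 (95.6 and 110 CPM). Mcm7 was the highest of the helicase genes, at 34.5 and 44.8 CPM (1.30, 1.15 to 1.46), and overlaps Ap4m1, Cops6 and 3 microRNA genes. Nucleotide supply was close too, with Rrm1 at 1.01 and wider for Rrm2, the subunit made in S phase, at 1.24 (1.04 to 1.48) and Tyms at 1.32 (1.08 to 1.60). In NK or ILC1 the same genes stood mostly above 1, with Mcm6 at 61.3 and 72.5 CPM (1.18, 1.07 to 1.30), Pcna at 101 and 133 CPM (1.32, 1.22 to 1.42), Rrm1 at 1.34 and Mcm2 at 0.920 (0.789 to 1.07). The Pcna-binding factor 2810417H13Rik differed most there, at 35.5 and 58.9 CPM (535 and 641 UMIs, 1.66, 1.48 to 1.87), and was at 32.1 and 41.9 CPM in T cells (1.31, 1.15 to 1.48).

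The genes of mitosis differed more in T cells. Cdc20, the activator of the anaphase-promoting complex, stood at 8.85 CPM in PKM2FL/FL and 18.3 in PKM2ΔMAC (139 and 233 UMIs, ratio 2.07, 1.67 to 2.58). Its partner enzyme Ube2c stood at 23.4 and 43.4 CPM (1.86, 1.63 to 2.13) and Plk1, on only 49 and 91 UMIs, at 3.12 and 7.16 CPM (2.30, 1.61 to 3.32). The cyclin gene Ccnb1 was at 5.60 and 11 CPM (1.97, 1.5 to 2.60), Ccnb2 at 1.68, Cdk1 at 1.70 and Ccna2 at 1.35 (1.11 to 1.65). Among spindle and chromosome genes the motor Kif11 was at 1.98, Cenpf at 1.93, Tpx2 (which activates Aurora A on the spindle) at 1.73 and Nusap1 at 1.63. Birc5 was at 20.8 and 38.2 CPM (1.84, 1.59 to 2.12), while its partner kinase Aurkb was at 1.36 (1.04 to 1.77). Mki67 (36.1 and 45.0 CPM, 1.25), Top2a (1.36), the kinetochore motor Cenpe (1.41) and Aurka (1.37, 0.988 to 1.91) were under 1.5-fold, and Cenpa was at 0.977 (0.906 to 1.05).

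The largest ratios in T cells belonged to the replication-dependent histone genes Hist1h2ap, at 17.9 and 53.8 CPM (282 and 683 UMIs, 3.0, 2.60 to 3.45), and Hist1h2ae, at 12.6 and 33.9 CPM (2.69, 2.27 to 3.20). About as many T cells held Hist1h2ap in each library, 83 of 2486 and 80 of 1995. The difference thus lay in UMIs per cell more than in the number of cells. Hist1h2ap in NK or ILC1 was at 39.9 and 61.8 CPM (1.55, 1.39 to 1.73) and Hist1h2ae at 1.25. Cks2 in T cells was at 54.0 and 108 CPM (2.01, 1.84 to 2.19), Cks1b at 1.41, Stmn1 at 1.44 (106 and 153 CPM) and Hmgb2 at 1.16 (517 and 601 CPM).

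By a fold of 1.5, 14 of the 35 members were higher in T cells of PKM2ΔMAC, where 4.43% of the 11504 genes compared were higher, and none was lower, where 13.5% of genes were. The 14 were Birc5, Cenpf, Ube2c, Nusap1, Ccnb1, Ccnb2, Cdk1, Cdc20, Tpx2, Kif11, Plk1, Hist1h2ap, Hist1h2ae and Cks2, which includes none of the genes for licensing, the fork or nucleotide supply. The median log2 ratio of the members was 0.46 against -0.15 over all genes in T cells, and 32 of 35 were above 1. In NK or ILC1, 3 members were higher (2810417H13Rik, Kif11 and Hist1h2ap) where 4.24% of 11333 genes were, and none was lower where 7.09% were. The median log2 ratio there was 0.27 against -0.07, and 33 of 35 were above 1, with Aurka the lowest at 0.713 (0.505 to 0.996). In B cells 9 of the 32 members with at least 20 UMIs were higher against 4.82% of 10230 genes, and 1 (Aurka, 18 and 11 UMIs) was lower against 8.15%. Most of these B cell counts were small, such as 4 and 17 UMIs for Ccnb1 (4.57, 1.49 to 18.7) and 8 and 16 for Ube2c (2.15, 0.869 to 5.81), and only Hist1h2ap (9.68 and 18.9 CPM, 1.95, 1.45 to 2.65) and Ccnb1 were higher by 1.5-fold with an interval above 1.

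Of 103 cell cycle genes outside the 35, 21 were higher by 1.5-fold in PKM2ΔMAC T cells, where 4.43% of all genes were. None was lower, where 13.5% were, and the median log2 ratio was 0.20 against -0.15 over all genes. The 21 included the mitotic checkpoint kinase Ttk, the kinetochore genes Nuf2 and Spc25, the separase gene Espl1 and the mitotic factor Foxm1. The same list had 15 higher in NK or ILC1, where 4.24% of all genes were. In those cells 1, the G1 cyclin gene Ccnd1, was lower, where 7.09% were.

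Counted only in cells with at least 10 members, each member left out in turn, the median ratios of the 2 lineages lay on different sides of 1. In T cells the median log2 ratio of the 35 was 0.31 against -0.05 over all 7878 genes compared in these cells, 30 of 35 were above 1, and none was lower by 1.5-fold where 12.5% of genes were. Higher by 1.5-fold were 9 members, where 7.92% of genes were: Cenpf, Ube2c, Ccnb1, Cdc20, Kif11, Plk1, Hist1h2ap, Hist1h2ae and Cks2. Hist1h2ap stood there at 204 and 577 CPM (224 and 635 UMIs, 2.83, 2.43 to 3.31) and Cdc20 at 86.4 and 177 CPM (2.04, 1.59 to 2.64). The median in NK or ILC1 was -0.07 against -0.04 over 8001 genes, and 13 of 35 were above 1. None was higher by 1.5-fold, where 8.11% of genes were, and 1 member, Aurka, was lower, where 11.3% were, at 59.4 and 26.4 CPM (69 and 30 UMIs, 0.444, 0.279 to 0.690). Cenpf (0.794, 0.688 to 0.915) and Ube2c (0.712, 0.618 to 0.820) were also under 1 there, the opposite side from T cells, whereas Kif11 (1.34, 1.09 to 1.65) lay above 1 in both lineages. In T cells below 10 members the median over 30 members was 0.00 against -0.17 over all genes. Birc5, Stmn1, Cks1b and Cks2 were higher there, 4 of 30 where 3.89% of genes were, and 1, Nusap1, was lower, where 14.8% were. The intervals of Birc5 (9 and 11 UMIs, 0.580 to 4.20) and Nusap1 (14 and 7 UMIs, 0.215 to 1.67) included 1. Those of Stmn1, Cks1b and Cks2 lay above 1. In NK or ILC1 below 10 members the median over 31 was 0.26 against -0.07. Higher were 8 of them (Cenpf, Ube2c, 2810417H13Rik, Ccnb2, Cdc20, Tpx2, Hist1h2ap and Mcm7), where 3.82% of genes were, and 1, Rrm2, was lower, where 7.75% were. Of these 8, Cenpf, Cdc20 and Tpx2 rested on few UMIs below the limit, and their intervals included 1. Cks2 was higher in T cells on both sides of the limit, at 2.25 (1.91 to 2.65) and, below it, at 1.78 (1.60 to 1.97).

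The balance of replication and mitosis among cells with at least 10 members differed between the libraries in opposite directions in the 2 lineages, with no test of that difference. It was taken as UMIs of 10 mitotic members (Ccnb1, Ccnb2, Cdc20, Plk1, Aurka, Cenpa, Cenpe, Cenpf, Ube2c and Tpx2) over UMIs of 10 replication members (Mcm2 to Mcm7, Rrm1, Rrm2, Tyms and 2810417H13Rik). In T cells it was 1673 over 1916 (0.873) in PKM2FL/FL and 2487 over 1921 (1.29) in PKM2ΔMAC. For NK or ILC1 it was 2443 over 2044 (1.2) and 2019 over 2087 (0.967). Cells with at least 5 mitotic members made up 52.6% (39.0 to 66.0%) and 65.6% (52.7 to 77.1%) of these T cells, and 61.4% (49.0 to 72.8%) and 49.5% (38.8 to 60.1%) of these NK or ILC1. The intervals of these shares overlap within each lineage. Cells with at most 2 of these mitotic members were 29.8% and 25.0% of T cells and 31.4% and 36.3% of NK or ILC1. Late genes outside the 10, such as Mki67 and Top2a, were not counted in that. Both sets of 10 are among the 30 members by which the cells were chosen. A cell with few mitotic members therefore had to hold others of the 30. Cells of both kinds were found in both lineages and both libraries.

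**Figure D4:**
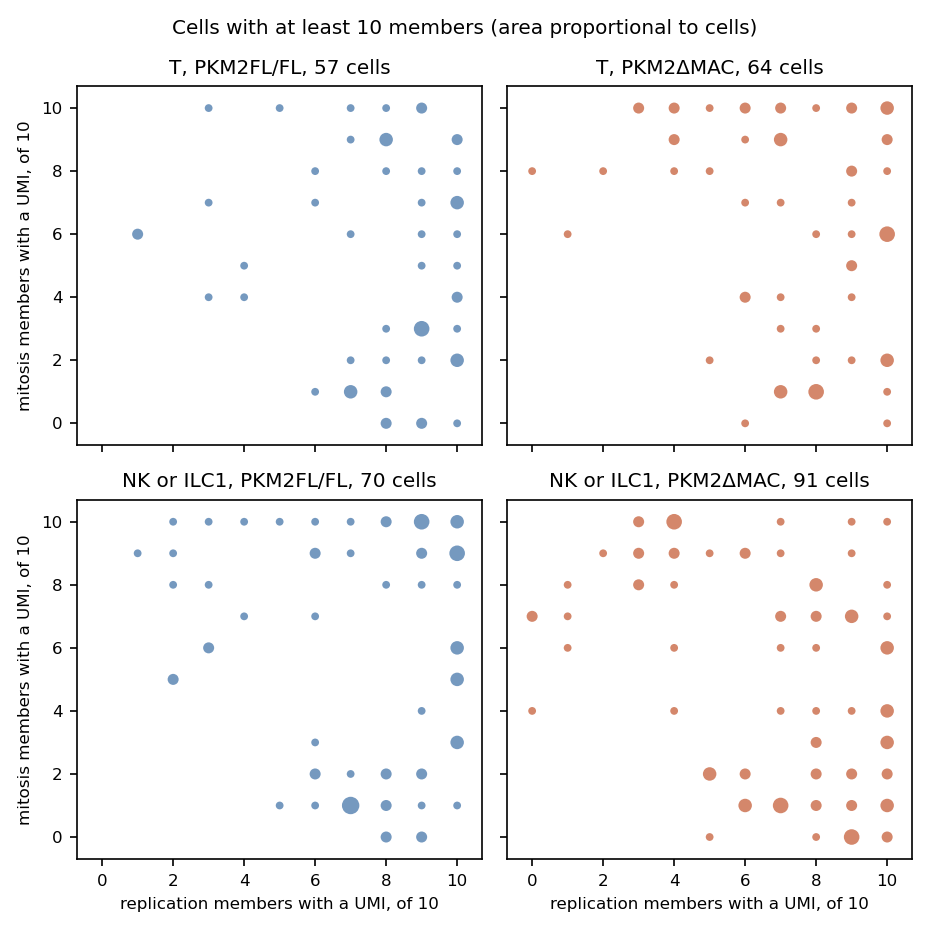
Number of replication members (x axis, of 10) and of mitotic members (y axis, of 10) with a UMI in each cell with at least 10 of the 30 members, for T and NK or ILC1 in each library, with circle area in proportion to the number of cells. Each panel holds cells with at most 2 mitotic members (16 to 33 cells) and cells with 5 or more mitotic members (30 to 45 cells).

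Genes that had no part in choosing the cells were compared between cells with many members and the rest of a lineage. Against cells with 0 to 2 members of the same lineage and library, 88 of 97 measured cell cycle genes outside the 35 were higher by 1.5-fold in both libraries in T cells with at least 10 members, where 15.9% of 9897 genes were. For NK or ILC1 it was 91 of 102, against 10.3% of 9912 genes. The 1 gene lower by 1.5-fold in both libraries in T cells was Ccnd2, a cyclin of the exit from rest (ratios of 0.508 in PKM2FL/FL and 0.472 in PKM2ΔMAC), where 7.44% of all genes were. In NK or ILC1 Ccnd1, Ccnd2 and the securin gene Pttg1 were lower, where 9.70% of all genes were. At 3 members, in NK or ILC1, the genes with the largest lower bounds were Cdca3, Hmmr, Hist1h1b, Ckap2l, Cdca8, Nuf2, Spc24, Kif20a, Espl1 and Kif4, and 81 of 102 were higher in both libraries against 4.49% of all genes. Outside the lists, Casc5, Clspn, Fbxo5 and Asf1b, also genes of replication or mitosis, led in both lineages.

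Of 9 genes of naive T cells 4 were lower by 1.5-fold in both libraries in T cells with at least 10 members, where 7.44% of all genes were, and none was higher. Il7r, the interleukin 7 receptor, was at 230 CPM against 971 in T cells with 0 to 2 members in PKM2FL/FL (0.237, 0.208 to 0.268) and at 379 against 1300.1 in PKM2ΔMAC (0.292, 0.264 to 0.322). Ccr7, the receptor for homing to lymph nodes, was at 0.445 and 0.448, Lef1 at 0.410 and 0.482 and Satb1 at 0.533 and 0.466. Klf2 (0.470 and 0.919), S1pr1 (0.331 and 0.957), Tcf7 (0.780 and 0.464) and Dapl1 (1.18 and 0.647) passed 1.5-fold in 1 library only. Of 13 effector genes 3 were higher and 1 lower in both libraries, and of 12 measured genes of chronic stimulation and residency 3 were higher and 2 lower, against 15.9% higher and 7.44% lower of all genes. Gzma, granzyme A, was higher at 4.36 (3.94 to 4.83) and 5.03 (4.34 to 5.83), the checkpoint receptor Ctla4 at 2.03 and 3.44 and the costimulatory receptor Tnfrsf9 at 1.90 and 2.41, while the chemokine Ccl5 was lower at 0.603 and 0.543. These are single genes of their lists, and the 2 lower genes of chronic stimulation and residency are not named here. Of 15 glycolysis genes 6 were higher in both libraries and none lower, with Tpi1 at 2.86 and 3.02, Gapdh at 2.59 and 2.67, and Pkm at 2.13 (1.93 to 2.36) and 2.52 (2.24 to 2.82).

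Of 13 effector genes in NK or ILC1, 4 were lower and 2 higher in both libraries in the cells with at least 10 members, where 9.70% of all genes were lower and 10.3% higher. Among the lower ones Ccl5 was at 0.298 and 0.340, the perforin gene Prf1 at 0.348 (0.247 to 0.477) and 0.438 (0.310 to 0.604), Ccl4 at 0.288 and 0.549 and Ifng, interferon γ, at 0.445 and 0.659. The higher ones were Gzmk (3.35 and 3.70) and the chemokine receptor Cx3cr1 (1.70 and 1.85), on 4 to 19 UMIs in those cells, and the intervals of Cx3cr1 included 1. Il7r was also lower, at 0.224 and 0.458. The glycolysis genes resembled those in T cells, 5 of 15 higher and 1, the glucose transporter Slc2a1, lower (0.641 and 0.554), with Gapdh at 2.32 and 2.10 and Pkm at 1.66 and 1.76. Pkm was thus higher in cells with at least 10 members in both lineages and in both libraries, PKM2ΔMAC included. In these comparisons the cells with at least 10 members were the deeper ones, and the part of depth in these ratios was not tested.

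Markers of other cell types were checked in the T and NK or ILC1 cells with at least 10 members. The stromal list summed to 2.21 CPM in PKM2FL/FL (2 of 10 markers found, 5 UMIs) and to 44.2 in PKM2ΔMAC (7 of 10, 100 UMIs), against 3.61 and 5.07 in the other T and NK or ILC1. The highest single cell in PKM2ΔMAC held 36.5 stromal UMIs per 10000. The basophil or mast list was at 20.8 and 3.98 CPM, each from 2 of 8 markers with the other 6 at 0, against 1.37 and 2.77. The lipid-associated macrophage list was at 83.6 (6 of 6) and 80.9 (4 of 6), against 41.2 and 30.4, and the neutrophil list at 93.4 and 183 (8 of 9 each) against 138 and 188. Their part in the results was not tested.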

How the data were processed

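Droplet single-cell 3′ RNA sequencing gave 1 library of liver non-parenchymal cells per genotype. The values are raw UMI counts per gene and cell, deposited by the authors as filtered matrices. Their headers name Cell Ranger 6.0.0. Genome build mm10 and Seurat 4.3.0 are named in the submitters' processing notes, and the labels' protocols leave the kit version (v2 or v3) unsettled. All columns were mapped to a library (0 were not).

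Cells with at least 300 genes and under 20% mitochondrial UMIs were kept (64 and 72 removed). Scrublet (scanpy 1.11.5), with 8% expected, called the doublets, which were removed. A cell joined the lineage with the largest share of its markers at 1 UMI per 10000 or more, with at least 2 markers, and stayed unassigned where another lineage reached over 0.8 of the best share. T and NK cells were separated by at least 2 UMIs of Cd3d, Cd3e and Cd3g. The gating rule and the limit of 10 members were set after the data were seen. The members and lists were chosen with earlier results of these data known.

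Counts were summed per library and lineage and expressed as CPM. A gene entered a comparison between libraries with at least 20 UMIs over both and counted as higher or lower past 1.5-fold, and a listed gene was named from 50 UMIs, up to 5 per list (10 for other cell cycle genes), with further names chosen after values were seen. Every member was named or counted. Shares have 95% Clopper-Pearson intervals, and a count of 0 allows 3 counts. Cells were also thinned to 1000 UMIs, leaving out 290 and 478 shallower cells. The ratio and thinning steps were tested on simulated data. Gene positions and overlaps came from GENCODE on GRCm38 and promoters from RefSeq. Scripts ran in Python 3.11.15 with pandas 2.3.3, scipy 1.17.1 and numpy 2.4.6, and figures in matplotlib 3.10.9.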

Additional observations from a re-analysis of the deposited data

How the results depend on the processing

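With 1 library per genotype no replicate could be left out. No paired analysis was possible because each group has 1 library. The limits of 8, 10, 12 and 20 members and of 3 and 4 members after thinning were chosen after seeing the data, as were thinning for the other cell cycle genes and the comparison of 10 or more with 0 to 2 members. The ratio of shares over all cells, 0.887 at 3 members, reversed to 1.18 at 5 members and 1.40 at 10, and after thinning to 1.09, 1.45 and 1.51 at 2, 3 and 4 members. The T ratio of 1.06 moved to 1.25 at 5 members, 1.40 at 10 and, thinned, 1.5 and 1.86 at 3 and 4. The NK or ILC1 ratio of 1.04 moved to 1.62 at 5, 1.70 at 10 and, thinned, 1.31, 1.94 and 1.70 at 2, 3 and 4. The B ratio of 0.538 moved to 0.725 at 2 members, 0.904 at 10 and, thinned, 0.873 and 0.354 at 2 and 3. The share of T cells over both libraries, 23.4% at 3 members, was 47.2%, 6.72% and 2.70% at 2, 5 and 10 members, 6.6%, 2.61% and 1.89% thinned at 2, 3 and 4, and 56.6% with all 35 members. For NK or ILC1, 21.6% became 43.9%, 6.70%, 3.37%, then 7.38%, 3.05%, 2.39%, and 54.2%. For neutrophils, 1.65% became 7.98%, 0.206% and 0.0%, thinned at 3 and 4 members 0.0716% and 0.0%, and 10.9% with all members, 2.87% with doublets kept and 0.94% under the stricter gate. The share at 10 members, 2.70% in T cells, was 3.24% at 8 members, 1.58% at 20 and 2.21% under the stricter gate, and in NK or ILC1, from 3.37%, 4.11% at 8, 2.87% at 12 and 1.72% at 20. The ratios of these shares in T, NK or ILC1 and all cells stayed inside the 95% intervals of their values at 10 members under these limits, doublets kept, the stricter gate and the stricter cell filters.

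Of the 35 member ratios in T cells, 16 moved outside their own intervals under the stricter gate and 19 stayed inside. By the mean of the cells' own CPM 7 moved and 28 stayed, and thinned 14 moved and 16 stayed. All 35 stayed with doublets kept and from 50 UMIs. Members higher in NK or ILC1, 3 by summed UMIs, were 10 by the mean of the cells' own CPM and 13 thinned. In B cells, from 9 higher and 1 lower, the counts were 5 and 6 by mean CPM, 1 and 0 from 50 UMIs, 1 and 2 thinned, 2 lower with doublets kept and 0 lower under the stricter gate, and Cdk1 reversed to 0.432 by mean CPM. Mean CPM gave summed levels of 457 and 587 in T cells and 512 and 637 in NK or ILC1. Other cell cycle genes higher in both libraries were 33 in T cells and 37 in NK or ILC1 when thinned, where fewer genes reach 50 UMIs. Those lower, 0 at 3 members, were 1 in T cells thinned or at 10 members, and in NK or ILC1 2 thinned or at 5 members and 3 at 10. Glycolysis genes higher in T cells, 2 at 3 members, were 5 at 5 members, 6 at 10 and 1 with doublets kept, and in NK or ILC1 4, 5 and, thinned, 6. The share of all genes past 1.5-fold was not counted for these alternative settings, except at 10 members. Whether it moved along with these counts is not known. Apart from the lower number of genes after thinning, the cause of the shifts was not tested.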
